A study of Mus musculus with 8 samples.

Results

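The 37 genes described here encode the ligands, receptors and nearest modulators of Wnt signalling: 19 Wnt ligands, 10 Frizzled receptors, the 2 co-receptors Lrp5 and Lrp6, the 4 R-spondins, and the inhibitors Dkk1 and Axin2. They were taken by symbol from a RefSeq table of 21887 protein-coding genes, in which all 37 were found. Chromatin accessibility had been mapped by ATAC-seq, which uses a transposase to tag open DNA, in mouse embryonic stem cells grown for 4 passages in 2i/LIF medium. Ubc9-depleted cells are v6.5 cells with a TET-OFF system, in which doxycycline for 72 hours depletes Ubc9, the enzyme that attaches SUMO to its targets, and Ubc9-control cells are the same line. H1 triple-knockout cells (H1.2-/-H1.3-/-H1.4-/-) lack 3 variants of H1, the linker histone bound where DNA enters and leaves the nucleosome, and H1-WT cells are their wild-type counterpart; both lines came from an earlier published study, and the labels do not say how many clones stand for each. Doxycycline is named for the depletion only, so the drug and the loss of Ubc9 cannot be told apart. Each of the 4 groups had 2 replicates, but the authors deposited 1 list of open regions per group, made from both. The values below therefore carry no replicate error and were not tested. The genes were grouped with the region lists of all 4 groups in view, so the counts describe these lists and are not independent support for a difference.

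Wnt ligands are secreted lipid-modified proteins that bind a Frizzled receptor together with Lrp5 or Lrp6. The bound receptor stops the destruction complex, built on Axin and Gsk3, from degrading beta-catenin, which then acts with TCF/LEF factors on target genes. R-spondins strengthen the signal by removing ubiquitin ligases that clear Frizzled from the membrane, Dkk1 blocks Lrp6, and Axin2 is a feedback scaffold of the destruction complex. In embryonic stem cells the pathway favours self-renewal, and 2i medium, used for all 4 groups, contains a Gsk3 inhibitor, which acts on the pathway below its receptors. An open region at a gene is not a measure of its transcription.

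A region was placed at a gene when it lay within 1 kb of either annotated end, and near it when it lay within 50 kb of the gene. Within a pair of lists, a region was shared when at least 1 bp overlapped a region of the other list. Scores are the authors' own, taken to be on the scale MACS writes, a multiple of minus log10 of the p-value, with a lowest value of about 50.1 in the Ubc9-depleted list, 50.3 in the Ubc9-control list and 50.0 in both H1 lists. They rank regions within a list only. Where the RefSeq promoter table gave a strand and start site, as it did for 25 members with 28 start sites, regions within 1 kb of a start site were counted as well.

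The lists held 48730 regions in Ubc9-depleted, 46847 in Ubc9-control, 58039 in H1 triple-knockout and 55489 in H1 wild-type cells, and the read depth behind them is unknown. Regions covered 0 bp of H1f2 and H1f3 in H1 triple-knockout cells, against 725 bp and 242 bp in H1 wild-type cells. Of H1f4 they covered 20 bp in H1 triple-knockout and 38 bp in H1 wild-type cells, which does not separate the groups. Open chromatin gives no check of how far a protein was depleted. Of 8 stem cell markers 5 had a gene-end region in Ubc9-depleted and 6 in Ubc9-control cells, and 6 in each H1 list. Of 6 fibroblast markers 2 had one in every list, and of 5 primitive endoderm markers 1 had one in Ubc9-depleted and 2 in Ubc9-control cells, and 1 in each H1 list. In bulk samples a region open in a few cells and one partly open in all cannot be told apart.

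The 250 bases upstream of the RefSeq start are shown for 3 ligands with a region at the start site only in Ubc9-depleted cells (Wnt1, Wnt4 and Wnt9a) and for the 2 members with one only in Ubc9-control cells (Wnt16 and Dkk1). The sequences run 5′ to 3′ in the direction of the gene (RefSeq, GRCm38.p6, the coordinates of mm10). Capitals mark every CG dinucleotide and every match to CTTTGA on either strand, the core of the TCF/LEF motif, and these never overlap.
Wnt1, chr15:98789607-98789856, plus strand: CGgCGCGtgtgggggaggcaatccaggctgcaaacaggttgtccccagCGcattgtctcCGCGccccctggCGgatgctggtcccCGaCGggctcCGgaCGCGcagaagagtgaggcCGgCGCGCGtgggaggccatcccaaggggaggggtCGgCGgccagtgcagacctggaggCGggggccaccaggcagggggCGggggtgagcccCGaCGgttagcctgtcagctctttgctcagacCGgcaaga
Wnt4, chr4:137277385-137277634, plus strand: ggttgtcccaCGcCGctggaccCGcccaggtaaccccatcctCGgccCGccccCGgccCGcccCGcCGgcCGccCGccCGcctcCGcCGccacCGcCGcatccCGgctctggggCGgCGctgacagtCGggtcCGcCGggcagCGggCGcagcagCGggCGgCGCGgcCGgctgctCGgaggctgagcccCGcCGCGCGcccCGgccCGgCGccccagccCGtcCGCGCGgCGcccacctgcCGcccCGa
Wnt9a, chr11:59306680-59306929, plus strand: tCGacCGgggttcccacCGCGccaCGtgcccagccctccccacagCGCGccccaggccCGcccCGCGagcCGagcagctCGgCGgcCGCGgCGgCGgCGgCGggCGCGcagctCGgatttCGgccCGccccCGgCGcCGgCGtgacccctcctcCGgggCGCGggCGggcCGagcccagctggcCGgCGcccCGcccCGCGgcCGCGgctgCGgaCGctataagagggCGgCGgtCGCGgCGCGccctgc
Wnt16, chr6:22287977-22288226, plus strand: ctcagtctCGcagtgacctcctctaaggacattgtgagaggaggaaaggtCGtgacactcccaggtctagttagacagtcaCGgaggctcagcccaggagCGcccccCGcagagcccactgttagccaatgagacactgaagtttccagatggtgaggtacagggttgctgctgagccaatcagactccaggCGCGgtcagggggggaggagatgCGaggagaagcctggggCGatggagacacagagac
Dkk1, chr19:30549497-30549746, minus strand: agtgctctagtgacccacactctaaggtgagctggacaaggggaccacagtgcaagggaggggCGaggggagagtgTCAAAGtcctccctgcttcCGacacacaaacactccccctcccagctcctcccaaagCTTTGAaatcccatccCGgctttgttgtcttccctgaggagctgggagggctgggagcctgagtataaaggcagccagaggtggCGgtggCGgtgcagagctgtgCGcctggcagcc
The first 3 hold 23, 44 and 48 CG dinucleotides in the order printed, against 9 in Wnt16 and 6 in Dkk1. The ratio of observed to expected CG (number of CG times length, divided by the product of the numbers of C and G) was 0.73 for Wnt1, 1.00 for Wnt4 and 1.09 for Wnt9a, against 0.42 for Wnt16 and 0.26 for Dkk1.

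More of the members' start sites were open in Ubc9-depleted cells only than in Ubc9-control cells only. Wnt1, Wnt2b, Wnt3, Wnt4, Wnt7a, Wnt9a, Wnt9b and Rspo4 each had a region at the start in the depleted list and none in the control list, 8 of the 25 members with a start site, against 4.80% of the 17492 genes in the promoter table. Only Wnt16 and Dkk1 went the other way, 2 of 25 against 3.60% of genes. Of the rest, 9 were open at a start in both lists and 6 in neither. The 8 depleted-only regions were 238 to 557 bp wide, all lay over or just upstream of the start, and scored from 62.0 to 233 with a median of 98.1. They stood between percentile 4.16 and percentile 76.2 of their list by score, and 4 of the 8 scored at least 100. With a score of at least 100 required in every list, the counts were 5 depleted-only and 1 control-only, and with only the regions above each list's median score they were 3 depleted-only and 1 control-only. The 5 were Wnt3, Wnt4, Wnt9a and Rspo4, with Wnt11 added because its control region, at 92.0, fell below the cut. The 3 were Wnt4 and Wnt9a, with Fzd9 added because its control region, at 111, was below that list's median of 126.

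Wnt9a, which acts in joint formation, had the highest score of these, 233 at percentile 76.2, in a region from 381 bp upstream to 174 bp downstream of its start. Wnt4, which acts in kidney and gonad formation, had a region of 557 bp scoring 135, the only region within 50 kb of that gene in any of the 4 lists. Rspo4, a secreted enhancer of the signal needed for nail formation, scored 108.

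Wnt3 and Wnt9b are neighbours on chromosome 11, and both were open at the start in depleted cells only. Wnt3, required for gastrulation in the mouse, had a start-site region scoring 100, and Wnt9b, a kidney ligand, one scoring 96.0. Between and beside them lay 2 more depleted-only regions, chr11:103766007-103766572 (score 85.5) and chr11:103809811-103810390 (score 113). All 4 had no partner in any other list, whereas a region near the far end of Wnt3 (chr11:103816718-103817155 in depleted cells) was in all 4 lists.

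Scores were lower at the remaining 3 start sites. They were 71.2 at Wnt2b, a ligand of limb and lung development, 71.0 at Wnt7a, which patterns the limb and the female reproductive tract, and 62.0 at Wnt1, the founding member of the family and an organizer of the midbrain. The last is at percentile 4.16 of the depleted list. None of the 8 regions overlapped a region of H1 wild-type cells, and only that of Wnt2b overlapped one of H1 triple-knockout cells, which scored 56.3. Such overlap was rare in general: over the whole list, 16.2% of Ubc9-depleted-only regions overlapped a region of at least 1 H1 list.

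**Figure D1:**
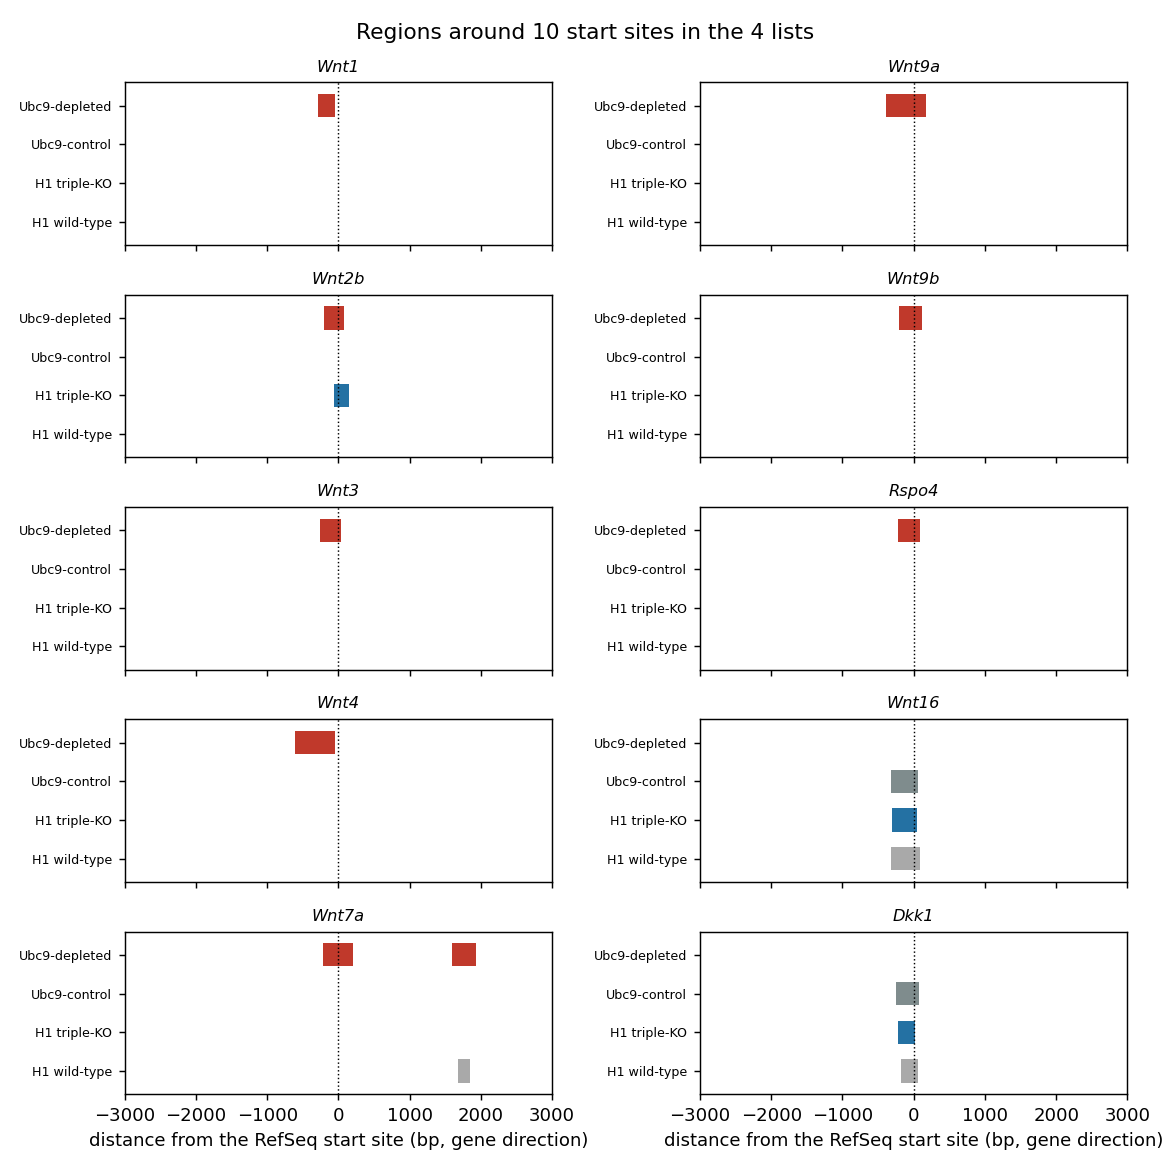
Open regions within 3 kb of 10 start sites in the 4 lists, plotted by distance from the RefSeq start in bp in the direction of the gene, with 1 row per list. The first 8 genes have a region over or just upstream of the start in Ubc9-depleted cells, and none there in Ubc9-control or H1 wild-type cells, and Wnt16 and Dkk1 have one in the other 3 lists but not in Ubc9-depleted cells.

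Wnt16, a ligand that maintains cortical bone, and Dkk1, the secreted Lrp6 antagonist needed for head formation, showed the reverse. At Wnt16 there was no region in Ubc9-depleted cells, against one scoring 146 in Ubc9-control cells, and regions scoring 255 in H1 triple-knockout and 176 in H1 wild-type cells. Dkk1 likewise had none in Ubc9-depleted cells, against a score of 98.5 in Ubc9-control cells, 109 in H1 triple-knockout cells and 163 in H1 wild-type cells. These 2 start sites were thus in 3 lists of 4, with the depleted list missing. Overlap with the H1 line was the usual case: over the whole list, 75.8% of Ubc9-control-only regions overlapped a region of at least 1 H1 list.

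The members' promoters are richer in CG than most, and the state of a start site went with CG content over the whole genome. The median CG ratio was 0.80 for the 28 member windows and 0.53 for all 21263 windows of protein-coding genes. For all genes, taking the highest ratio among a gene's start sites, the median was 0.74 at the 840 genes with a start-site region in Ubc9-depleted cells only, and 0.45 at the 629 with one in Ubc9-control cells only. It was 0.78 where both lists had one and 0.20 where neither did. For Wnt5b and Wnt11 that highest ratio belongs to an outer start site, not to the open inner one. The 8 depleted-only members ranged from 0.68 to 1.09, and the 2 control-only members were at 0.26 and 0.42.

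The background therefore has to be read within a class of CG content, and the boundary of 0.6 was chosen after the values were seen. Of members with a ratio of at least 0.6 and no start-site region in control cells, 8 of 12 had one in depleted cells, against 44.3% of the 1270 such genes. Without the class, 8 of 14 stood against 10.6%, and below 0.6, 0 of 2 (Wnt8b and Wnt10b) against 4.17%. For control-only start sites, 2 of 8 members without a depleted region stood against 8.14%. Below 0.6, 2 of 4 members without a region in depleted cells had one in control cells, against 6.40% of genes, and at 0.6 or above 0 of 4 did, against 21.3%. The 4 CG-rich members that stayed without a region in both lists were Rspo1, Wnt2, Wnt3a and Wnt6. At Wnt6 a region beyond the 1 kb limit, centred 1399 bp downstream of the start in Ubc9-depleted cells, was in all 4 lists. It scored 268 in Ubc9-depleted, 264 in Ubc9-control, 327 in H1 triple-knockout and 180 in H1 wild-type cells. In the H1 pair the 2 states lay closer together, with median ratios of 0.68 at 665 triple-knockout-only genes and 0.65 at 757 wild-type-only genes. There 1 of the 13 CG-rich members without a wild-type region, Wnt2b, was open in triple-knockout cells, against 26.0% of such genes, and 0 of the 2 CG-poor ones against 3.92%. Without the class it was 1 of 15, against 8.11%. Of members without a triple-knockout region, 0 of 12 CG-rich and 0 of 2 CG-poor ones were open in wild-type cells, against 27.0% and 4.91% of such genes, and over both classes 0 of 14, against 9.13%. The part of base composition in the members' state was not tested.

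**Figure D2:**
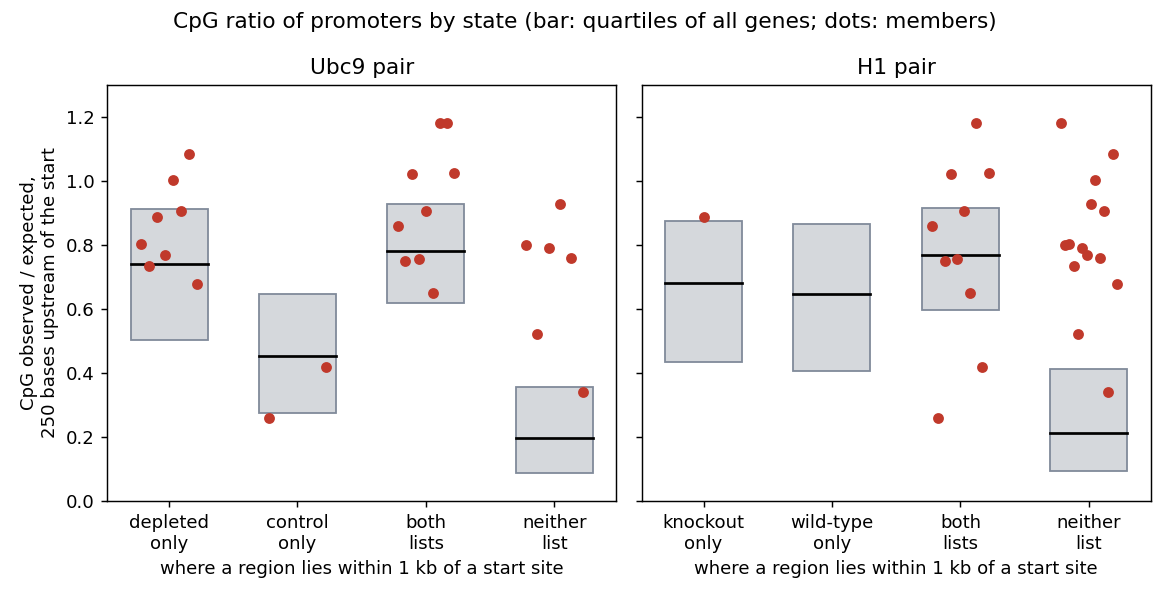
Ratio of observed to expected CG in the 250 bases upstream of the start, by where a start-site region was found, for the Ubc9 pair (left) and the H1 pair (right); bars span the quartiles of all genes with their median as a line, and dots are members. The 8 depleted-only members lie between 0.68 and 1.09 and the 2 control-only members at 0.26 and 0.42, and in the H1 pair 14 members, most with a high ratio, are in neither list.

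The TCF/LEF core CTTTGA (either strand) was in the 250 upstream bases of 4 of the 28 member windows, against 12.7% of all windows. Dkk1 holds 2 matches, and Fzd1, Wnt11 and the innermost start of Wnt5b 1 each. None of the 8 depleted-only start sites held a match in this window. The GC box GGGCGG (either strand), bound by Sp factors, was in 20 of 28 member windows, against 42.6% of all windows, and is itself rich in CG.

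Counted at both annotated ends of a gene, which covers all 37 members, the picture for the Ubc9 pair was similar. Of the 37, 24 had a gene-end region in Ubc9-depleted cells and 18 in Ubc9-control cells. In depleted cells only, 8 had one, against 5.29% of all genes, and 2 had one in control cells only, against 4.02%. Of the 19 members without a control region the 8 are set against 11.3% of genes, and of the 13 without a depleted region the 2 are set against 8.81%. The 8 were Wnt1, Wnt2b, Wnt4, Wnt5a, Wnt7a, Wnt9a, Lrp5 and Rspo4. Wnt5a, the main ligand of the beta-catenin-independent branch, had a region scoring 68.4 lying 689 bp inside its lower-coordinate end (chr14:28505232-28505600). Lrp5 had one scoring 134 over its upper-coordinate end (chr19:3686270-3686778). In the 10 Mb around Lrp5 there were 87 depleted-only against 29 control-only regions, and on chromosome 19 as a whole, which also holds Dkk1, 549 depleted-only against 277 control-only regions, a ratio of 1.98 against a median of 1.12 over autosomes; the part of this in the state of Lrp5 was not tested. In Ubc9-control cells the nearest region to an Lrp5 end was inside the gene, 1246 bp from the other end and just outside the limit, and in both H1 lists it was 1263 bp away at the same place.

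The limit also decided Wnt9b, whose nearest depleted region to an annotated end, the one at the start of Wnt3, was 1057 bp away, while its own start site lies inside the annotated gene. Just inside it were regions at 933 bp from Fzd8 and 924 bp from Fzd1 in H1 wild-type cells, both second regions of genes with a nearer one. Axin2 had no region at its ends in any list, and its RefSeq start site lies inside the annotated gene. At that start site it was open in all 4 lists, with scores of 347 in Ubc9-depleted, 272 in Ubc9-control, 382 in H1 triple-knockout and 461 in H1 wild-type cells. Axin2 is a direct target of beta-catenin in many tissues. Wnt5b, at the innermost of its 3 start sites, scored 151 in Ubc9-depleted, 209 in Ubc9-control, 312 in H1 triple-knockout and 308 in H1 wild-type cells. Wnt11, a ligand of cell movements in gastrulation, scored 109 in Ubc9-depleted, 92.0 in Ubc9-control, 202 in H1 triple-knockout and 163 in H1 wild-type cells at the inner of its 2 start sites. Wnt3 had regions at an end in all 4 lists through its far end, which the start-site count leaves out.

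The ligands and their receptors differed in how often they were open. Of the 19 ligands, 10 had a gene-end region in Ubc9-depleted cells, 5 in Ubc9-control cells, 7 in H1 triple-knockout cells and 5 in H1 wild-type cells. All 10 Frizzled genes had one in both Ubc9 lists, 9 had one in H1 triple-knockout cells and 8 in H1 wild-type cells. Over all genes the shares were 54.4% in Ubc9-depleted, 53.1% in Ubc9-control, 51.4% in H1 triple-knockout and 51.7% in H1 wild-type cells. In all 4 lists 13 members were open at a gene end, 8 of them Frizzled genes, with Wnt3, Wnt8a, Wnt10a, Lrp6 and Rspo3. In none of the lists were 9 open at an end, namely Wnt3a, Wnt5b, Wnt7b, Wnt8b, Wnt9b, Wnt10b, Wnt11, Rspo1 and Axin2, although Wnt5b, Wnt11 and Axin2 were open in all 4 lists at a start site inside the annotated gene. Counts over all genes for the 4 lists together are not given. By pair, 16 of 37 members were open in both Ubc9 lists and 17 in both H1 lists, against 10738 and 10279 of 21887 genes. Open in neither list were 11 members in the Ubc9 pair and 16 in the H1 pair, against 9111 and 9589 genes.

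**Figure D3:**
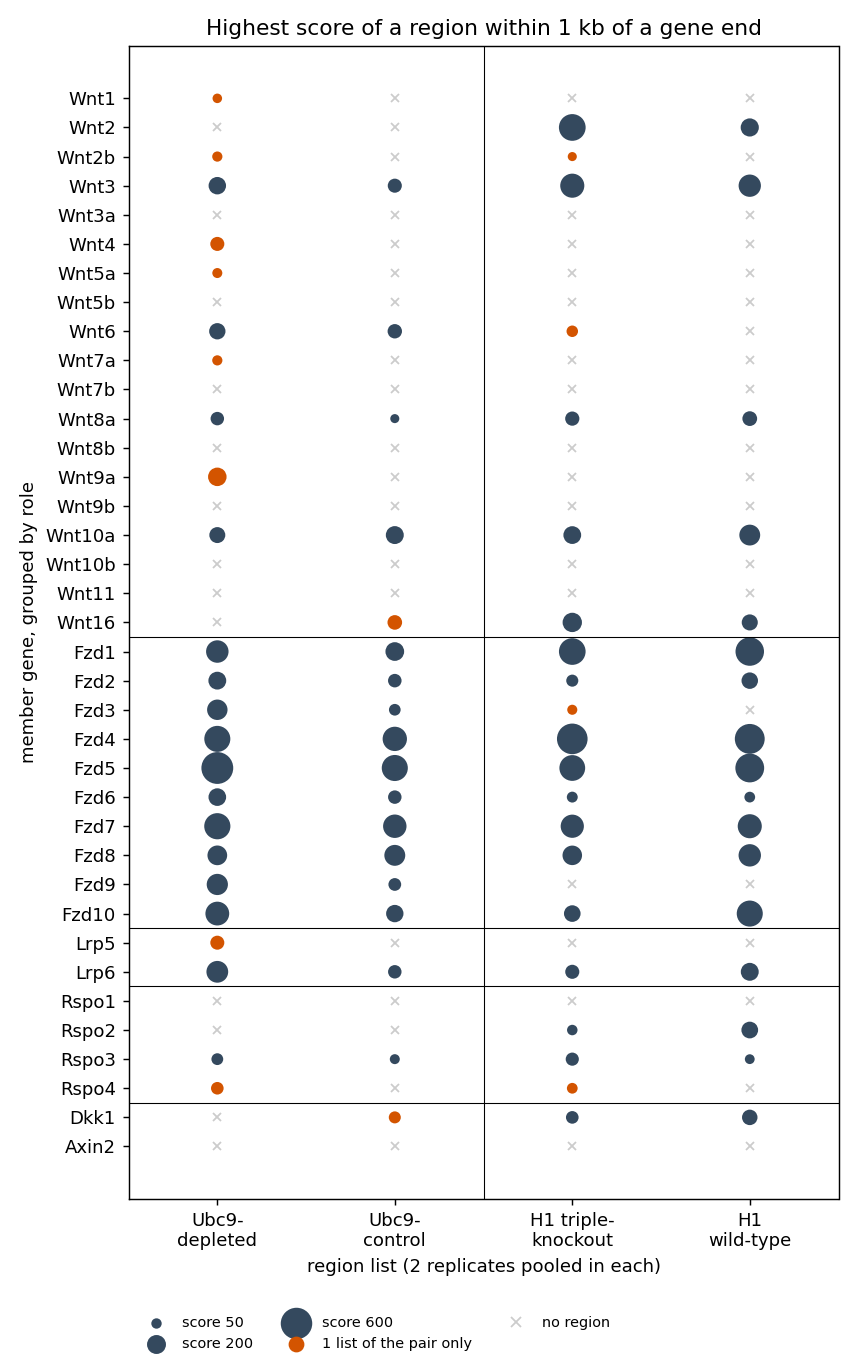
Highest score of a region within 1 kb of a gene end for each of the 37 members (rows, grouped by role) in the 4 lists (columns); disc area follows the score, orange discs are genes with a region in 1 list of the pair only, and crosses mark no region. The 10 Frizzled rows are filled in both Ubc9 columns, and 6 of the 8 orange discs in the Ubc9-depleted column are Wnt ligands.

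Among the ligands open in both Ubc9 lists, Wnt8a, a ligand of the gastrulating embryo, had scores of 123 in Ubc9-depleted and 55.8 in Ubc9-control cells, where the lowest of the list is 50.3, and of 138 in H1 triple-knockout and 148 in H1 wild-type cells. Wnt10a, a ligand of teeth and skin, scored 174 in Ubc9-depleted and 219 in Ubc9-control cells near its upper end. Wnt6 scored 182 in Ubc9-depleted and 141 in Ubc9-control cells at its far end. Wnt2, a lung ligand, was open at its gene end in the H1 cells only, with scores of 487 in triple-knockout and 225 in wild-type cells, and had no gene-end region in either Ubc9 list.

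The Frizzled genes encode the membrane receptors that bind the ligands. Their gene-end scores ran from 212 to 690 with a median of 325 in Ubc9-depleted cells, and from 93.1 to 463 with a median of 222 in Ubc9-control cells. Scores rank regions within a list only, so medians of different lists do not show where these genes were more open. Fzd5, needed for yolk sac and placental vessels, stood highest in both Ubc9 lists, at 690 (percentile 97.9) in Ubc9-depleted and 463 (percentile 95.1) in Ubc9-control cells. Fzd7, an abundant Frizzled of pluripotent cells, had 467 in Ubc9-depleted and 374 in Ubc9-control cells, and 367 in H1 triple-knockout and 395 in H1 wild-type cells. Fzd4, the Norrin receptor of retinal vessels, had 462 in Ubc9-depleted and 403 in Ubc9-control cells, and its region lay within 1 kb of an end of Tmem135 as well.

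In the H1 lists the Frizzled scores ran from 69.3 to 639 with a median of 260 over the 9 genes open in triple-knockout cells, and from 78.9 to 608 with a median of 428 over the 8 open in wild-type cells. Fzd4 was highest in both, at 639 in triple-knockout and 608 in wild-type cells. Fzd1 scored 344 in Ubc9-depleted and 238 in Ubc9-control cells, and 484 in H1 triple-knockout and 554 in H1 wild-type cells. Fzd8 scored 265 in Ubc9-depleted and 298 in Ubc9-control cells. Fzd6 was the lowest open Frizzled gene in wild-type cells, at 212 in Ubc9-depleted, 124 in Ubc9-control, 81.2 in H1 triple-knockout and 78.9 in H1 wild-type cells.

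Some Frizzled regions were wider in depleted cells. That of Fzd2 was 1715 bp in Ubc9-depleted and 442 bp in Ubc9-control cells, that of Fzd9 was 953 bp in Ubc9-depleted and 330 bp in Ubc9-control cells, and that of Fzd3 was 901 bp in Ubc9-depleted and 448 bp in Ubc9-control cells. The highest-scoring region was wider in Ubc9-depleted cells at 6 of the 10 Frizzled genes and at 12 of the 16 members open in both lists, against 67.9% of all genes open in both, so width was near the background. Fzd9, deleted in Williams syndrome in humans, was open only in the Ubc9 line, with scores of 307 in Ubc9-depleted and 111 in Ubc9-control cells and no region in either H1 list.

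Of the co-receptors, Lrp6 was open at its upper end in all 4 lists, with highest scores of 323 in Ubc9-depleted, 124 in Ubc9-control, 135 in H1 triple-knockout and 219 in H1 wild-type cells. Among the R-spondins, Rspo3, needed for placental vessels in the mouse, was open in all 4, at 94.9 in Ubc9-depleted, 67.8 in Ubc9-control, 118 in H1 triple-knockout and 65.6 in H1 wild-type cells. Rspo2 was open in the H1 lists only, at 75.02 in triple-knockout and 191 in wild-type cells. Rspo1 had no gene-end region in any list.

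In the comparison of H1 triple-knockout with H1 wild-type cells, fewer members differed. Of the 37, 21 had a gene-end region in triple-knockout cells and 17 in wild-type cells. Of these, 4 had one in triple-knockout cells only, against 4.45% of all genes, and 0 had one in wild-type cells only, against 4.78%. The direction of these counts turned with a score filter, to 1 triple-knockout-only against 2 wild-type-only members at a score of at least 100, and to 0 triple-knockout-only against 5 wild-type-only members above each list's median score. The filter can make a member open in both full lists count as open in 1. Fzd2, at 99.3 in triple-knockout and 185 in wild-type cells, became wild-type-only at the cut of 100. Shares over all genes under these filters are not given. Of the 20 members without a wild-type region the 4 are set against 9.21% of genes, and of the 16 without a triple-knockout region the 0 are set against 9.84%. At start sites, Wnt2b alone was open in triple-knockout cells only, 1 of 25 against 3.80% of genes, and 0 of 25 in wild-type cells only, against 4.33%.

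The 4 gene-end regions had low scores. Fzd3, which guides axons, scored 69.3 in triple-knockout cells (percentile 10.4), and Wnt2b scored 56.3 (percentile 2.23). Wnt6 scored 90.1 at its far end, and Rspo4 78.8, also at its far end rather than at the start that was open in Ubc9-depleted cells. Fzd3 and Wnt6 were open in both Ubc9 lists. Wnt2b lies on chromosome 3, where 1944 regions were found only in triple-knockout and 609 only in wild-type cells, a ratio of 3.19 against a median of 1.14 over autosomes; the part of this imbalance in the state of Wnt2b was not tested.

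Within 50 kb of the members, each region counted once, the Ubc9-depleted list held 109 regions, 41 of them in that list only, and the Ubc9-control list held 106, with 38 in that list only. These are 37.6% and 35.8%, below the 45.6% and 43.3% over the whole lists. With only the regions above each list's median score, the unshared regions numbered 24 in Ubc9-depleted and 13 in Ubc9-control cells. In the H1 pair there were 145 regions in triple-knockout cells, 46 in that list only, and 143 in wild-type cells, 44 in that list only, or 31.7% and 30.8% against 31.4% and 28.8% over the whole lists. Around the 19 ligands alone the H1 shares were 42.6% in triple-knockout and 40.4% in wild-type cells. In the Ubc9 pair 15 members had more depleted-only than control-only regions, against 36.4% of all genes, and 14 had more control-only regions, against 38.2%. In the H1 pair 16 had more knockout-only regions, against 39.9%, and 13 more wild-type-only regions, against 30.7%. These shares are close to the background.

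The unshared regions of the Ubc9 pair differed in whether the other line held them. Of the 38 regions in Ubc9-control cells only, 28 overlapped a region of at least 1 H1 list, 73.7% against 75.8% over the whole list. Of the 41 in Ubc9-depleted cells only, 4 did, 9.76% against 16.2%. Both shares near the members were below those of the whole lists.

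A surplus of at least 3 depleted-only regions was found at 5 members, Wnt3, Wnt9b, Wnt7a, Fzd3 and Fzd6, against 9.13% of all genes, and the first 2 named share their 4 regions. Above each list's median score the difference was 0 at Wnt3, 1 at Wnt9b, 1 at Wnt7a, 4 at Fzd3 and 3 at Fzd6. A surplus of at least 3 control-only regions was found at 3, Fzd7, Fzd10 and Lrp6, against 11.6%. With a score of at least 100 in every list, the difference was -1 at Fzd7, -2 at Fzd10 and -3 at Lrp6. On the depleted side it was then 1 at Wnt3, 2 at Wnt9b, 1 at Wnt7a, 4 at Fzd3 and 1 at Fzd6. Both cuts were made before the overlap, so a region whose partner fell below the cut counts as unshared. At Fzd3 the 4 under each cut include its gene-end region, at 285 in Ubc9-depleted cells, whose control partner scored 93.1. At Fzd6 the 3 above the median include regions whose control partners scored 124 and 120. The strongest depleted-only region near any member lay 15806 bp upstream of the start of Wnt2b (chr3:104977515-104978442, score 561 at percentile 96.0), in no other list, and was 928 bp wide. Fzd3 had 3 such regions outside the gene, with scores of 275, 255 and 141 in Ubc9-depleted cells, against 0 in Ubc9-control cells only. Fzd6, a planar polarity receptor, had 3 regions in depleted cells only and 0 in control cells only. In the 10 Mb around Fzd3 there were 61 depleted-only against 35 control-only regions, and around Fzd6 81 against 85. The part of this balance in the values of Fzd3 and Fzd6 was not tested. Wnt1 and Wnt10b, which share a neighbourhood, had many unshared regions in both directions, 2 and 3 in depleted cells only, against 3 at each gene in control cells only.

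Fzd10, a receptor of the primitive streak and neural tube, kept its promoter region in all 4 lists, with scores of 386 in Ubc9-depleted, 206 in Ubc9-control, 188 in H1 triple-knockout and 462 in H1 wild-type cells. Its flanks held 0 regions in Ubc9-depleted cells only and 4 in Ubc9-control cells only, and 0 in H1 triple-knockout cells only and 3 in H1 wild-type cells only. Of these, 2 upstream regions were in Ubc9-control and H1 wild-type cells and in neither Ubc9-depleted nor H1 triple-knockout cells, chr5:128579166-128579690 (score 199 in Ubc9-control cells), ending 21416 bp upstream of the gene, and chr5:128589206-128589563 (score 171), ending 11543 bp upstream. In H1 wild-type cells the overlapping regions scored 202 and 159. At Rspo3 an internal region, chr10:29474218-29474652, scoring 255 in Ubc9-control and 364 in H1 wild-type cells, was likewise in those 2 lists only, and was the strongest unshared region near any member in both of them. Regions with the same pattern also lay near Wnt1, Wnt3a, Wnt7a, Wnt9a, Wnt10b, Wnt11, Fzd4 and Lrp6. The share of this pattern over the whole lists is not given.

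Lrp6 had many regions in the H1 lists, 16 within 50 kb in triple-knockout and 19 in wild-type cells, against 5 in Ubc9-depleted and 9 in Ubc9-control cells. These counts are not like for like between the lines. Median region widths were 259 bp in triple-knockout and 273 bp in wild-type cells, against 431 bp in Ubc9-depleted and 367 bp in Ubc9-control cells. At the upper end of Lrp6 each H1 list had 2 regions and each Ubc9 list 1. Regions in 1 list only numbered 0 in Ubc9-depleted against 4 in Ubc9-control cells, and 1 in triple-knockout against 5 in wild-type cells. Lrp6 and Wnt7a lie on chromosome 6, where the H1 balance was 760 knockout-only against 1524 wild-type-only regions. In the 10 Mb around Lrp6 it was 41 triple-knockout-only against 128 wild-type-only regions, and around Wnt7a it was 27 triple-knockout-only against 172 wild-type-only regions; the part of this in the 2 genes' values was not tested.

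In the H1 pair a surplus of at least 3 knockout-only regions was found at 4 members, Dkk1, Wnt8a, Wnt6 and Wnt10a, the last 2 sharing theirs, against 10.0% of genes. With only the regions above each list's median score, the difference was 1 at Dkk1 and turned to -1 at Wnt8a, Wnt6 and Wnt10a. The -1 values came from regions in both full H1 lists. Their triple-knockout scores, 138 near Wnt8a and 127 near Wnt6 and Wnt10a, fell below that list's median of 139. A surplus of at least 3 wild-type-only regions was found at 5, Wnt3a, Wnt9a, Wnt7a, Fzd10 and Lrp6, against 6.72%. Above the median score the difference was 0 at Wnt3a, Wnt9a and Wnt7a, -2 at Fzd10 and -4 at Lrp6. Dkk1 kept its promoter region in both H1 lists and had 4 more regions in triple-knockout cells only, at scores of 165, 140, 109 and 85.1, against 0 in wild-type cells only. Wnt3a, the ligand most used to stimulate stem cells, and its neighbour Wnt9a share part of their surroundings. Wnt3a had 2 regions in triple-knockout cells only against 6 in wild-type cells only, and Wnt9a had 0 in triple-knockout cells only against 4 in wild-type cells only. Wnt5b had 10 unshared regions, 6 in triple-knockout and 4 in wild-type cells only.

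**Figure D4:**
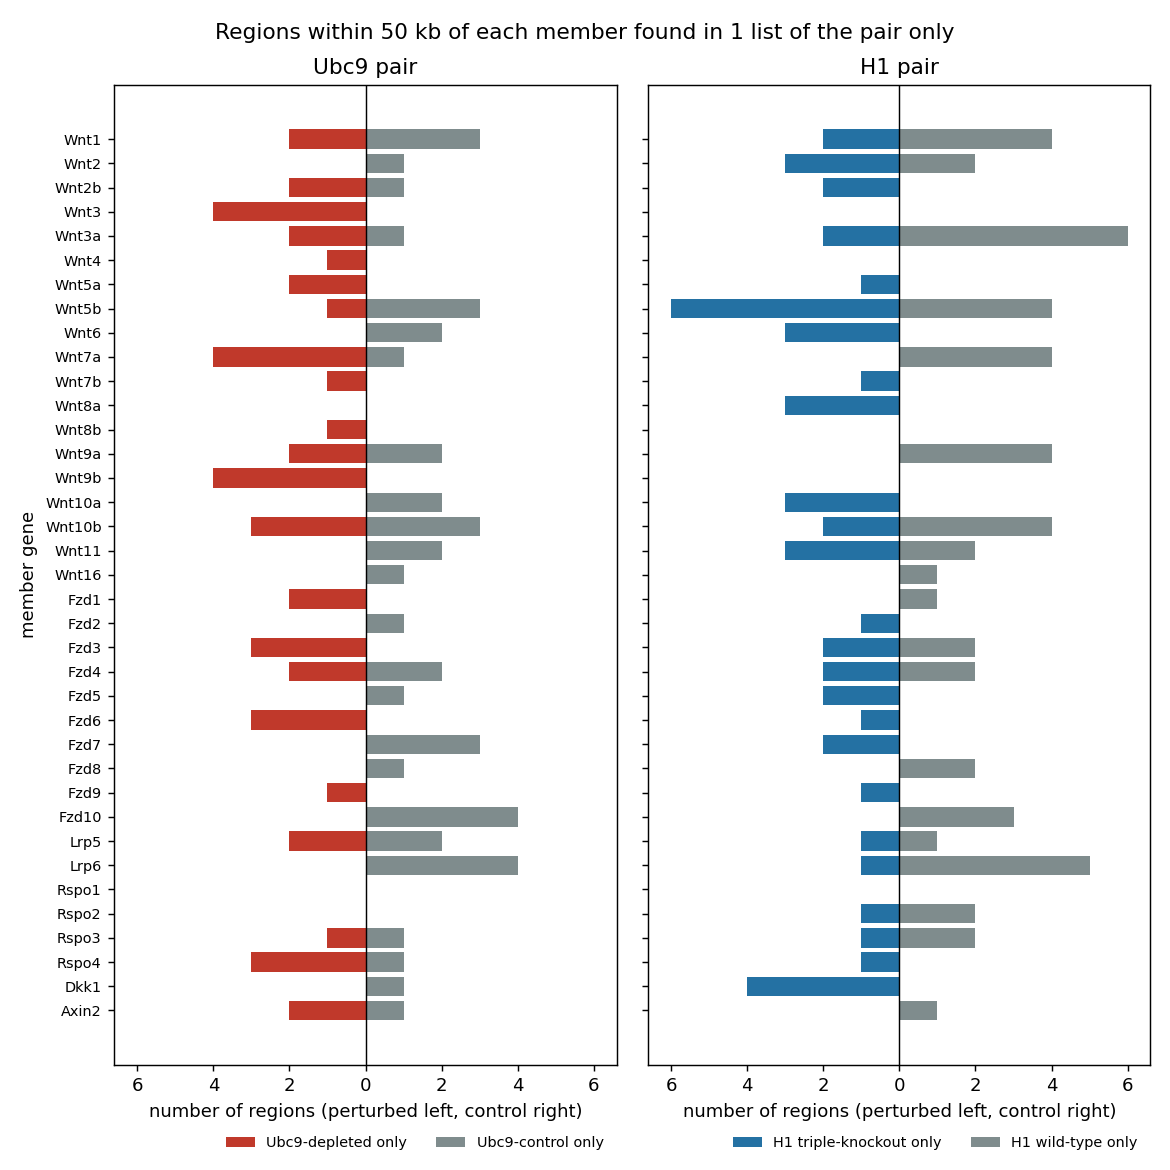
Number of regions within 50 kb of each member found in 1 list of the pair only, for the Ubc9 pair (left panel, Ubc9-depleted to the left and Ubc9-control to the right of 0) and the H1 pair (right panel, triple-knockout to the left and wild-type to the right). Wnt3 and Wnt9b have 4 depleted-only regions and no control-only region, Fzd10 and Lrp6 lean to the control side in both panels, and Wnt7a leans in opposite directions.

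Other genes of the pathway were taken from 3 lists, with 66 genes in all after overlaps, of which 9 had a gene-end region in Ubc9-depleted cells only (background 5.29%) and 5 in Ubc9-control cells only (4.02%). Of 30 other surface and secreted regulators, 5 were depleted-only. These were Rnf43 (score 197), a ligase that removes Frizzled, Ptk7 (188), a planar polarity co-receptor, Notum (156), an enzyme that strips the lipid from Wnt, and the secreted Wnt binders Sfrp2 (146) and Sfrp5 (118). Lgr5 (97.1), an R-spondin receptor, and Cer1 (87.7), a secreted antagonist, were control-only. Of these 5 depleted-only genes, Rnf43, Ptk7, Sfrp2 and Sfrp5 were also open at a start site in depleted cells only, and Notum has no start site in the promoter table.

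Of 25 genes of intracellular transduction, Tcf7 (189), a TCF factor, and Pygo1 (57.0), a beta-catenin cofactor, were depleted-only, and Lef1 (80.5), another TCF/LEF factor, was control-only. Lef1 still had 1 start-site region in depleted cells. Of 19 target genes matched in the table, Tnfrsf19 (80.9) and Mixl1 (67.2) were depleted-only beside Rnf43, Tcf7 and Notum, and Sp5 (115), a transcription factor induced by beta-catenin, and Cdx2 (91.3) were control-only beside Lgr5 and Lef1. The region of Cdx2 itself was shared and crossed the edge of the window. Tnfrsf19 was still open at a start site in control cells.

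In the H1 pair 2 of the 66 genes were knockout-only against 4.45% of all genes, Dkk3 (109) and Apc (67.7), the scaffold of the destruction complex. Wild-type-only were 6 against 4.78% of all genes, namely Ctnnb1 (134), which encodes beta-catenin itself, Ccnd1 (109), Cdx2 (79.0), Bcl9 (68.7), Dvl1 (64.8), the adaptor below Frizzled, and Tcf7 (54.3). Ctnnb1, Dvl1 and Tcf7 were open at a start site in wild-type cells and not in triple-knockout cells. Bcl9 was open at its start site in both H1 lists.

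**Figure D5:**
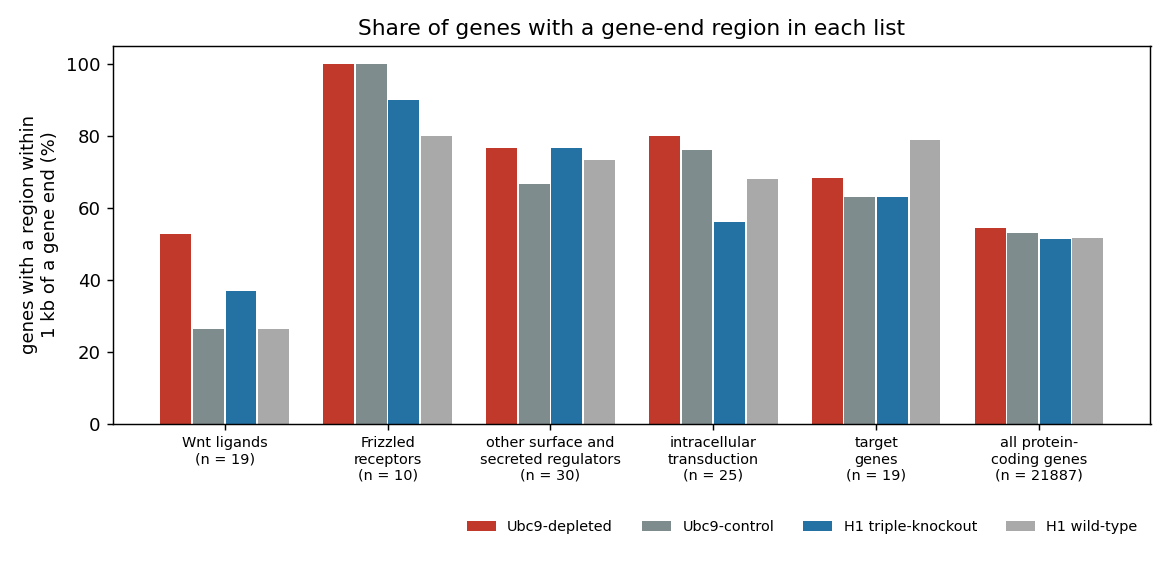
Share of genes (%) with a region within 1 kb of a gene end in each of the 4 lists, for the Wnt ligands, the Frizzled receptors, 3 other lists of the pathway and all protein-coding genes, with the number of genes under each name. Frizzled genes are at 100% in both Ubc9 lists, and Wnt ligands are at 52.6% in Ubc9-depleted cells and 26.3% in Ubc9-control cells.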

How the data were processed

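Per the labels, each deposited list holds the open regions of 2 pooled replicates of 1 group, from 50000 cells per reaction and 12 PCR cycles. Per the submitters' processing notes, CASAVA 1.8.2, Bowtie2, Picard and MACS 1.4.2-1 were used with genome build mm10; how replicates were combined, filters, and any shift of reads for the transposase are not given in the sources used here. The score of each region is the authors' deposited value.

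From the lists, with Python 3.11.15 and pandas 2.3.3, regions within 1000 bp of gene ends or start sites and within 50 kb of genes were counted, and shared regions were those overlapping by at least 1 bp. Genes came from RefSeq (GRCm38.p6) and had to be protein-coding; 1 listed symbol, Tbxt, was not matched, and T stood for the same gene. Overlaps and counts were checked on simulated lists with known answers. The members and lists were chosen with earlier results of these data known. Named are members whose state differs within a pair, those with the most and the most uneven unshared regions within 50 kb, and other pathway genes whose state differs; further genes were picked with their values in view. Start-site windows, the promoter composition and the class of CG ratio were chosen after the data were seen. Intervals were not given, since the lists hold no counts.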

Additional observations from a re-analysis of the deposited data

Results flagged for a closer look

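Wnt7a, on chromosome 6, drew attention because its 2 pairs leaned in opposite directions. Within 50 kb it had 4 regions in Ubc9-depleted cells only against 1 in Ubc9-control cells only, a difference of 3. In the H1 pair it had 0 in triple-knockout cells only against 4 in wild-type cells only, a difference of -4. With a score of at least 100 in every list the differences were 1 in the Ubc9 pair and 0 in the H1 pair, so the opposite directions were not seen there. The difference between the pairs was not tested.

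Tcf7, on chromosome 11, had a gene-end region in Ubc9-depleted cells only (score 188.6) and, in the H1 pair, in wild-type cells only (score 54.26). It was picked out for these opposite directions, and that difference was not tested. The H1 wild-type region is near the lowest score of its list.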

How the results depend on the processing

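No paired analysis was possible because each list pools both replicates, and for the same reason no replicate could be left out and no fit with a replicate block could be made. The numbers of members with a region in Ubc9-depleted cells only kept a higher value than those in Ubc9-control cells only under every alternative tried, at gene ends and at start sites, but not every count held its size. The members behind the counts changed with the score filter, so the kept direction does not show that the same members stayed depleted-only. At a score of at least 100, Wnt8a and Fzd3 entered at gene ends and Wnt11 at start sites. Their control regions, at 55.8, 93.1 and 92.0, fell below the cut. Wnt1, Wnt2b and Wnt7a left both counts, Wnt5a left that at gene ends, and Wnt9b that at start sites. Dkk1 left the control-only counts. With a score of at least 100 in every list, the members with a region in 1 list only numbered 1 at gene ends in H1 triple-knockout, 2 in H1 wild-type and 1 in Ubc9-control cells, so that the H1 direction at gene ends turned, and at start sites 5 in Ubc9-depleted, 1 in Ubc9-control and 0 in H1 triple-knockout cells. The unshared regions within 50 kb then numbered 26 in Ubc9-depleted, 23 in Ubc9-control and 20 in H1 wild-type cells. Score cuts were made before the overlap, so a region whose partner fell below the cut counts as unshared. Of these regions, 19 in Ubc9-depleted, 16 in Ubc9-control and 13 in H1 wild-type cells were unshared in the full lists. Shares over all genes or whole lists under the score cuts are not given. With only the regions above each list's median score, a choice made after seeing the data, gene ends gave 1 in Ubc9-control, 0 in H1 triple-knockout and 5 in H1 wild-type cells, again turned, start sites gave 3 in Ubc9-depleted, 1 in Ubc9-control, 0 in H1 triple-knockout and 1 in H1 wild-type cells, and 50 kb gave 24, 13, 19 and 27 regions in those 4 lists. The H1 differences of Wnt6, Wnt8a and Wnt10a then turned to -1. Without members on chromosomes 3, 6 and 19, also added afterwards, gene ends gave 5 in Ubc9-depleted and 0 in Ubc9-control cells, start sites 0 in Ubc9-control and 0 in H1 triple-knockout cells, and 50 kb gave 24 in Ubc9-control, 29 in H1 triple-knockout and 27 in H1 wild-type cells. A gene-end window of 500 bp or of 2500 bp gave 1 in H1 wild-type cells, the wider one also 1 at start sites, and equal numbers of top-scoring regions gave 0 start sites in H1 triple-knockout cells. Within 25 kb there were 27 regions in H1 triple-knockout cells only, and within 100 kb 71 in Ubc9-depleted, 65 in Ubc9-control and 78 in H1 wild-type cells only. Read depth and how replicates were combined are unknown, so a missing region means only that none was listed. The cause of these changes was not tested.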
